A study of Homo sapiens with 16 samples.

Results

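Huh7 is a human hepatocellular carcinoma (HCC) line that still makes many proteins of the liver cell, and Sorafenib is a multi-kinase inhibitor given for advanced HCC. Huh7-CR cells are Huh7 cells selected for Sorafenib resistance by keeping them at a constantly high concentration of the drug. The comparison of Huh7-CR with Huh7 parental cells used 4 of the 16 RNA-sequencing libraries of the series, 2 of each group, chosen by the sample names. The other 12 libraries held Huh7 cells labelled DMSO, Huh7-IR cells, which were selected with increasing concentrations, and the same 4 groups of a second HCC line, Hep3B. Huh7-CR and Huh7-IR cells, and the CR and IR cells of Hep3B, were maintained in 7 µM Sorafenib. The parental and the DMSO libraries are both labelled as untreated. The presence of the drug and the acquired resistance can therefore not be told apart in this comparison. The study's methods speak of biological triplicates, whereas the labels give 2 libraries per group, and how these relate to the triplicates is not given in the sources used here. Neither the labels nor the methods say whether Huh7-CR is a single clone. The p-values measure only the spread between the deposited libraries.

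Liver cells secrete most proteins of blood plasma, assemble lipoproteins and detoxify foreign compounds, and a small group of transcription factors (the HNF, FOXA and C/EBP families) keeps these genes on. HCC cells can lose this program and take up genes of mesenchymal cells, which hold matrix, integrin and cytoskeletal genes. Sorafenib blocks RAF kinases and several receptor tyrosine kinases, and the study asked which genes changed in cells that had become resistant to it.

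The parental libraries held 68722229 and 74663662 reads and the CR libraries 64697819 and 76407060 reads. Levels are in CPM, the reads of a gene scaled to the total of its library, and 1 read was worth 0.0131 to 0.0155 CPM. Replicates correlated at 0.993 in both groups across genes on the log2(CPM + 1) scale, and their differences had an SD of 0.29 in each. The difference between the parental replicates followed the GC content of the transcripts, with a Spearman correlation of -0.53 across genes, and the CR replicates gave 0.27. The change from parental to CR gave 0.01 over the 14449 genes with a known GC content.

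In all, 5181 of 15019 genes tested differed between Huh7-CR and parental cells, with 3141 higher (20.9%) and 2040 lower (13.6%) in Huh7-CR. A gene was called when the adjusted p of limma was under 0.05 and the change at least 0.58 on the log2 scale. Counts of called list members below stand against these shares of 20.9% and 13.6%. Of the called genes, 547 were higher and 289 lower by 2 or more, and 37 were higher and 17 lower by 5 or more. For all 5181 called genes, both CR libraries lay beyond both parental libraries, as they did for 77.5% of all genes tested. The share of higher genes among the called was 60.6%, and it depended on the scaling between libraries: it was 53.3% with TMM factors, 53.4% with edgeR on the recovered reads, 54% with DESeq2 and 49.3% after quantile normalization. Among the called genes, 663 that were higher in Huh7-CR lay under 1 CPM in both parental libraries, and 324 that were lower fell under 1 CPM in both CR libraries. Changes are differences of log2(CPM + 1), which understate the change of genes at such low levels.

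**Figure D1:**
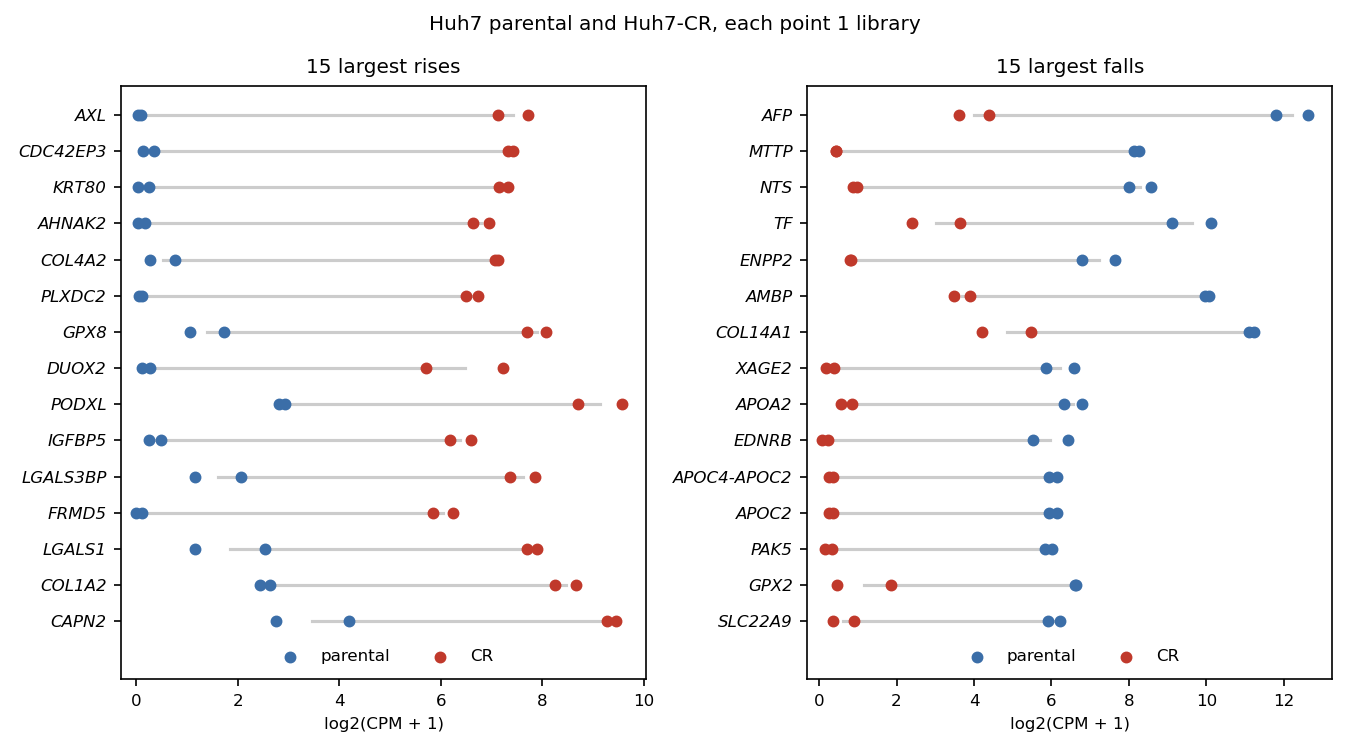
Levels of the 15 genes with the largest rise and the 15 with the largest fall in Huh7-CR cells, as log2(CPM + 1) on the x axis, each point 1 library (blue, parental; red, CR) and each grey line joining the group means. The 2 libraries of a group lie close together beside the distance between the groups, with MTTP, NTS and APOA2 under 1 CPM in both CR libraries.

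AXL, a receptor tyrosine kinase for the ligand GAS6 that sits at chr19:41725128-41767671 (GRCh37, plus strand), showed the largest rise. It was at 0.0582 and 0.0268 CPM in the parental libraries (4 and 2 reads) and at 208 and 139 CPM in the CR libraries, a change of 7.36 ± 0.37 (SE; limma adjusted p = 5.2e-08). The DMSO libraries held 0.0414 and 0.603 CPM of AXL and the Huh7-IR libraries 214 and 190 CPM, so that both resistant lines lay far above all 4 other Huh7 libraries. CDC42EP3, an effector of the small GTPase CDC42, followed with 0.276 and 0.0938 CPM in parental and 169 and 158 CPM in CR cells (7.12 ± 0.19, adjusted p = 8.5e-10). KRT80, a keratin of epithelial filaments, went from 0.189 and 0.0268 to 159 and 141 CPM, a change of 7.09, and AHNAK2, which encodes a very large scaffold protein, from 0.116 and 0.0268 to 122 and 97.7 CPM, a change of 6.68. These genes were all but silent in the parental cells and moderately expressed in Huh7-CR.

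Matrix and surface genes made up much of the rest of the 15 largest rises. COL4A2, a chain of the type IV collagen of basement membranes, rose by 6.58 and COL1A2, a chain of fibrillar type I collagen, by 5.93, from 4.38 and 5.16 to 304 and 405 CPM. PODXL, the sialomucin podocalyxin, was already present in parental cells at 6.59 and 5.97 CPM and reached 753 and 416 CPM (6.27). LGALS3BP, which encodes a galectin-binding glycoprotein, went from 3.17 and 1.23 to 164 and 231 CPM. LGALS1, which encodes galectin-1, rose by 5.96, PLXDC2, a plexin-domain membrane protein, by 6.53 and IGFBP5, a binding protein of insulin-like growth factors, by 6.01. DUOX2, an NADPH oxidase that releases hydrogen peroxide, rose by 6.28 and was uneven between the CR libraries, at 51.5 and 149 CPM. GPX8, a peroxidase of the endoplasmic reticulum, rose by 6.50, the calpain protease gene CAPN2 by 5.90 and FRMD5, a FERM-domain gene, by 5.99. CAPN2 stood at 67.8 and 41.1 CPM in the DMSO libraries against 17.1 and 5.72 CPM in the parental ones, and its rise was 3.61 at the lowest among the alternative analyses.

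AFP, the fetal plasma protein used as a serum marker of HCC (chr4:74296855-74321891, plus strand), showed the largest fall. It was among the most abundant transcripts of parental cells at 3549 and 6269 CPM and was at 11.3 and 20.1 CPM in Huh7-CR, a change of -8.19 ± 0.54 (adjusted p = 4e-07) and a 313-fold difference between the mean CPM. MTTP, which loads lipid onto apolipoprotein B, went from 277 and 307 CPM to 0.355 and 0.366 CPM (-7.75 ± 0.25, adjusted p = 2.8e-09), the second largest fall and one with almost no spread between replicates. NTS, the precursor of the peptide neurotensin, fell with a change of -7.37, TF, the iron carrier transferrin, with -6.59 and ENPP2, the secreted enzyme autotaxin, with -6.42. TF was also the most variable of these, at 556 and 1110 CPM in parental and 4.3 and 11.5 CPM in CR cells.

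The other large falls included further liver products and some genes of other kinds. AMBP, the precursor of alpha-1-microglobulin and bikunin, went from 1080 and 1006 to 10.2 and 13.8 CPM (-6.34), and APOA2, a main protein of high-density lipoprotein, from 78.7 and 110 to 0.819 and 0.484 CPM (-5.84). APOC2, the activator of lipoprotein lipase, and the overlapping readthrough gene APOC4-APOC2 gave the same change of -5.74, and their reads cannot be told apart. COL14A1, a fibril-associated collagen, went from 2188 and 2398 to 17.6 and 43.6 CPM (-6.31). XAGE2, a cancer-testis antigen, changed by -5.95, the endothelin receptor EDNRB by -5.82, the kinase PAK5 by -5.68, the glutathione peroxidase GPX2 by -5.45 and the organic anion transporter SLC22A9 by -5.43. GPX2 differed between the CR libraries, at 0.386 and 2.6 CPM.

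**Figure D2:**
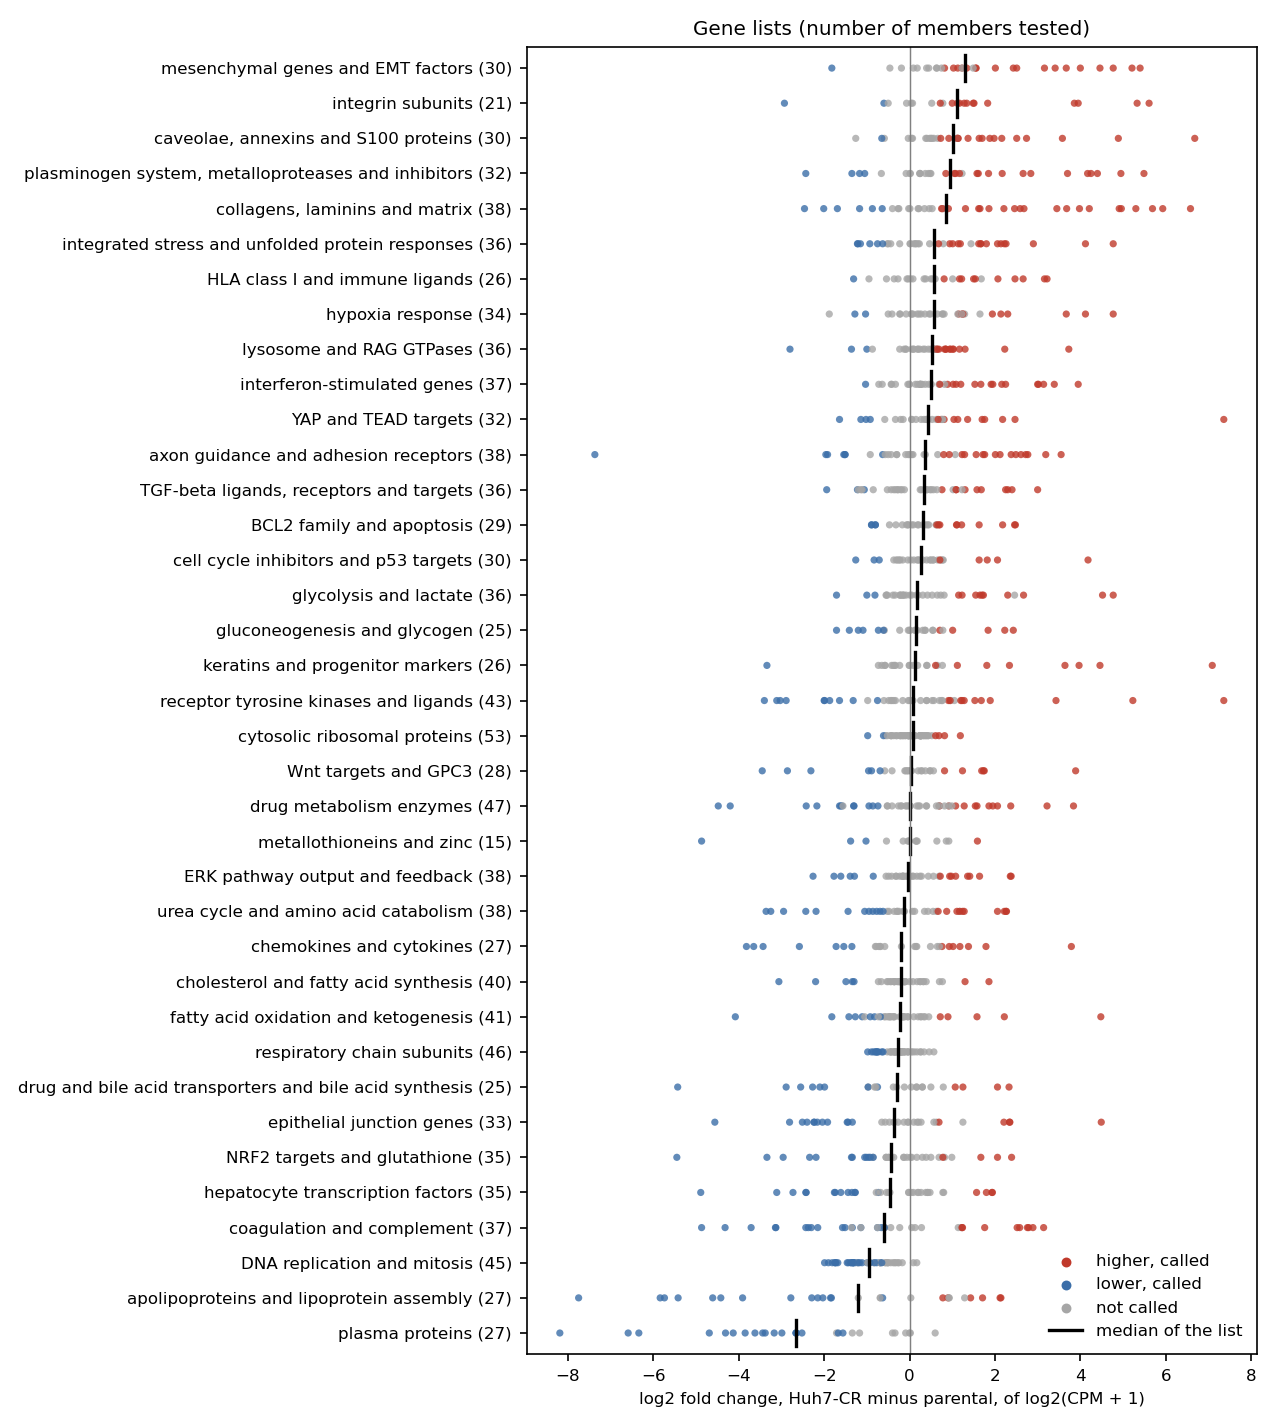
Change of every tested member of the 37 gene lists, as the difference of log2(CPM + 1) between Huh7-CR and parental cells on the x axis, with 1 row per list in order of its median (black bar) and 1 point per gene (red, called higher; blue, called lower; grey, not called). Plasma proteins lie at the bottom with a median of -2.66, and mesenchymal genes, integrins and caveolar genes at the top with medians of 1.29, 1.12 and 1.01.

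Plasma proteins fell as a group. Of 32 listed genes 27 were tested, and 18 were lower and none higher, with a median change of -2.66 against 0.07 over all genes tested. AFP, TF and AMBP led the list, followed by AHSG, which encodes fetuin-A (-4.69), ITIH2, a hyaluronan-binding inhibitor chain (-4.31), and FGB, a fibrinogen chain, from 693 and 712 to 23.2 and 65.7 CPM (-4.13). SERPINA1, the antitrypsin of plasma, went from 268 and 400 to 42.2 and 62.7 CPM (-2.65 ± 0.58, adjusted p = 0.00323). ALB was an exception among the abundant members. Albumin transcripts were at 3710 and 3629 CPM in parental and at 1147 and 2305 CPM in CR cells, a change of -1.17 ± 0.61 that was not called (adjusted p = 0.144). TTR, the thyroid hormone carrier transthyretin, was likewise not called at -1.71 (adjusted p = 0.0567). In the DMSO libraries ALB stood higher, at 9739 and 13244 CPM, and against these its change was -2.80.

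Of 27 tested genes of apolipoproteins and lipoprotein assembly (32 listed), 14 were lower and 6 higher, with a median of -1.20. The higher share of 22.2% lay near the 20.9% of all genes, and with the DMSO libraries as the reference 16 were lower and 2 higher. Beside MTTP, APOA2 and APOC2, lower members included APOB, the structural protein of low-density lipoprotein, which went from 1631 and 3853 to 64.8 and 207 CPM (-4.42), APOA1, from 38.7 and 36.9 to 0.309 and 0.916 CPM (-4.61), and APOE, from 41.3 and 40.2 to 4.36 and 5.93 CPM (-2.78). The higher members included the lipoprotein receptors VLDLR, from 16.5 and 17.4 to 77.9 and 78.8 CPM (2.14), and LRP1 (1.71). LRP1 kept its call in 11 of 19 alternatives, and its DMSO libraries lay at 89.2 and 355 CPM. APOL1, an apolipoprotein of innate immunity, rose by 2.12 from under 0.5 CPM.

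Of 37 tested coagulation and complement genes, 16 were lower and 9 higher (42 listed, median -0.59), the latter a share of 24.3% against the 20.9% of all genes. The plasma factors SERPINF2, the plasmin inhibitor (-4.87), SERPIND1, a thrombin inhibitor (-4.32), KNG1, the kininogen (-3.71), and F2, prothrombin (-3.14), were lower. The complement genes C4A and C4B rose by 2.79 and 3.14, although the pair is nearly identical in sequence and its reads may be shared. CD55, a membrane inhibitor of complement, rose by 2.89, from 14 and 12.9 to 130 and 86.1 CPM, and TFPI2, a matrix-bound protease inhibitor, by 2.76.

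The transcription factors of the hepatocyte differed in how much they changed. Of 35 tested, 13 were lower (37.1%) and 4 higher (11.4%), against 13.6% and 20.9% of all genes (37 listed, median -0.46). CEBPA, a leading regulator of liver metabolism, was nearly lost, from 109 and 149 to 2.32 and 4.67 CPM (-4.89 ± 0.32, adjusted p = 3e-07). ONECUT1, also known as HNF6, changed by -3.11, and the pioneer factor FOXA1 by -2.73, from 18.9 and 29.5 to 1.93 and 3.7 CPM. HNF4A fell less, from 232 and 203 to 72.1 and 110 CPM (-1.28, adjusted p = 0.00985), and its call was kept in 16 of 19 alternatives. The higher factors were PPARA, the fatty acid receptor (1.94), NR1I2, the xenobiotic receptor PXR (1.93), CEBPB, the stress-responsive relative of CEBPA (1.80), and NR2F1 (1.57). PPARA lay at 20 and 71.3 CPM in the DMSO libraries, and its change against these was 0.10.

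**Figure D3:**
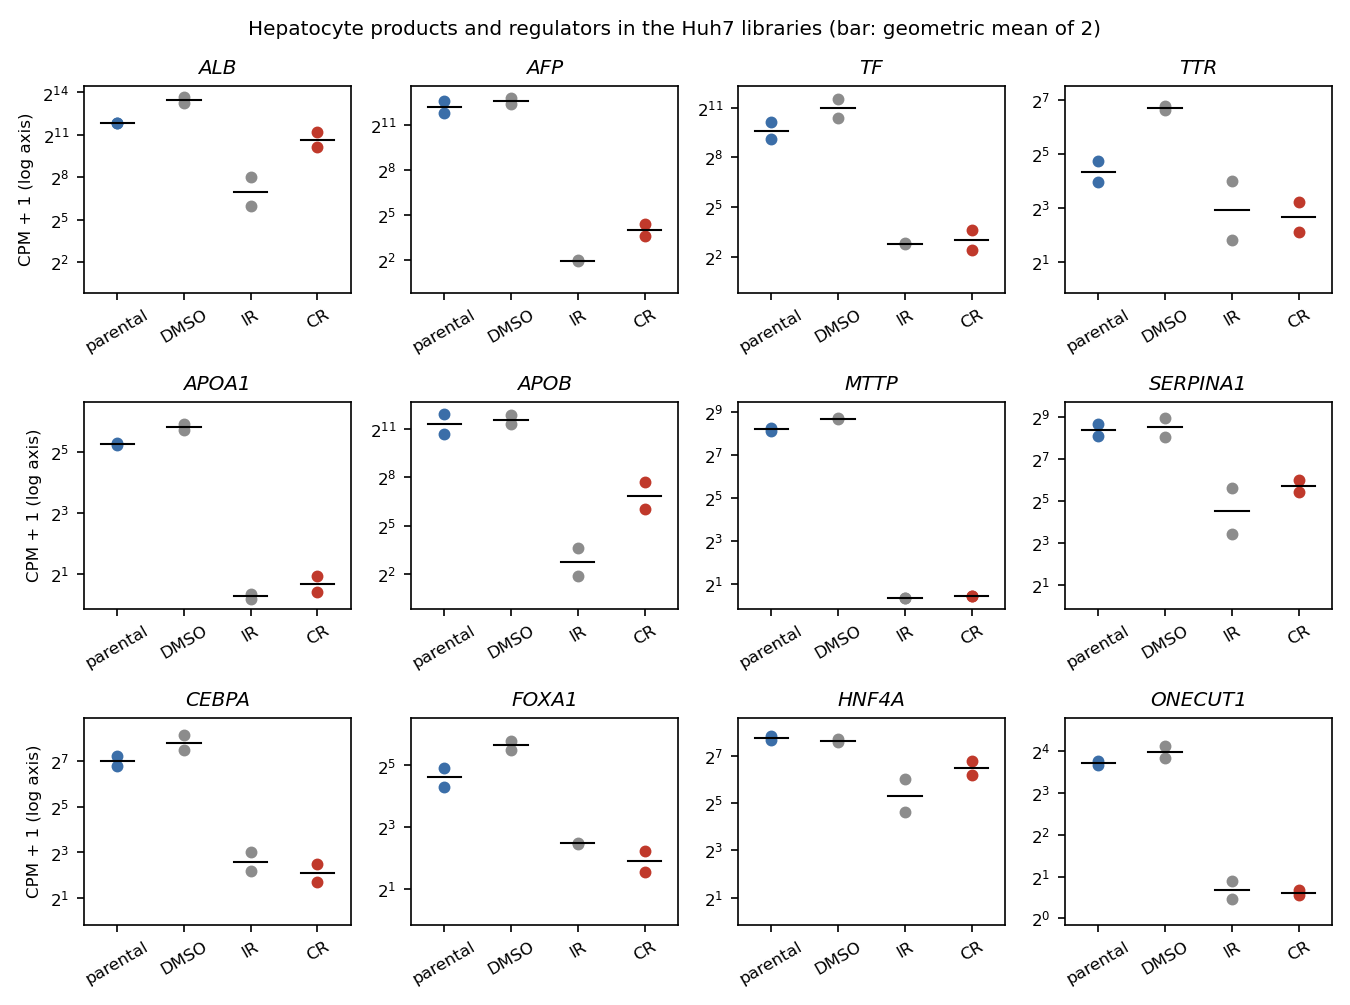
Levels of 12 hepatocyte products and regulators in the 8 Huh7 libraries, as CPM + 1 on a log axis, with 1 point per library and a bar at the geometric mean of the group. AFP, TF, MTTP, CEBPA and ONECUT1 are low in both resistant lines, and ALB and APOB are lower in IR than in CR cells.

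Short stretches of 2 promoters of falling plasma proteins are shown because HNF1 binding sites are a known feature of such promoters and both genes fell. The letters GTTAAT, any base and then ATT, from the HNF1 site, were searched on both strands in the 250 bases before the start of each gene (RefSeq promoters on GRCh38.p14, the first listed per gene), and 74 of all 27305 promoters held a match (0.271%). Of the 18 lower plasma protein genes 15 had a promoter there, and 2 of these held a match, while none did among the 6 of 9 uncalled plasma protein genes that had one. FGA, a fibrinogen chain, itself went from 1244 and 933 to 68.6 and 205 CPM (-3.17). Capitals mark the match, and the AFP stretch lies at chr4:73436079-73436108 on the plus strand and the FGA stretch at chr4:154590779-154590808 on the minus strand. The match in FGA reads on the strand opposite to the one printed.
AFP: ccgctatgctGTTAATTATTggcaaatgtc
FGA: ggacaaagccAATGATTAACcaaacctctt

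Of the marker lists for the labelled cell type and for other cells, 7 of 10 hepatocyte markers were lower and none higher, and their summed level was 10710 and 16251 CPM in parental and 1380 and 2810 CPM in CR libraries. For fibroblasts and stellate cells, 5 of 7 tested markers were higher and 2 lower (9 listed). COL1A2, COL3A1, COL1A1, RGS5 and PDGFRB rose, while LUM, which encodes lumican, and PDGFRA were lower in Huh7-CR. The summed level of the 9 was 400.0 and 534 CPM in parental and 520 and 830 CPM in CR libraries, so that parental cells already held it, mostly as LUM (277 and 329 CPM) and PDGFRA (107 and 189 CPM). DCN, a defining fibroblast gene, was at 0.665 and 2.5 CPM in the CR libraries and under 1 CPM in both parental ones. It did not pass the filter on low values and was not tested. Of 8 leukocyte markers 4, CD3E, TYROBP and NKG7 among them, were at 0 in all 4 libraries. Of 4 tested, 1 was higher and 1 lower in Huh7-CR. PTPRC, the pan-leukocyte marker, reached 1 CPM in at least 1 parental library and was at 0.216 and 0.262 CPM in CR cells. The sum over the 8 was 37 and 44.7 CPM in parental and 80.4 and 113 CPM in CR libraries, of which CD68, a lysosomal protein, held 5.47 and 2.58 and then 46.3 and 47.6 CPM. Of 8 endothelial markers 6 lay under 1 CPM in all 4 libraries, and of the 2 tested 1 was higher and 1 lower. Their summed level was 2.31 and 2.21 CPM in parental and 11.6 and 11.4 CPM in CR libraries over the 8 markers. In bulk RNA, fewer cells of a type and less RNA per cell cannot be told apart.

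Mesenchymal genes and regulators of the epithelial-mesenchymal transition rose, with 18 of 30 tested higher and 1 lower (39 listed, median 1.29). TAGLN, an actin-binding protein of contractile cells, was uneven between the parental libraries, at 17.1 and 1.39 CPM, and reached 322 and 237 CPM (5.40 ± 0.77). SPARC, a matrix glycoprotein, went from 12 and 8.16 to 366 and 445 CPM (5.21), and ZEB2, a transcriptional repressor of epithelial genes, from 4.15 and 1.85 to 111 and 95.9 CPM (4.77). VIM, the intermediate filament vimentin, was abundant in both, at 1261 and 1120 CPM against 2942 and 2286 CPM (1.13, adjusted p = 0.00326). MCAM, an adhesion molecule, was the member that fell (-1.82). The fibroblast markers above share COL1A1, COL1A2 and COL3A1 with the matrix genes, and the part of another cell type in these rises was not tested.

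Of 33 tested epithelial junction genes, 12 were lower and 5 higher (38 listed, median -0.36), and 19 were lower and 5 higher with the DMSO libraries as the reference (median -1.02). Against the parental libraries this was 36.4% lower and 15.2% higher, beside 13.6% and 20.9% of all genes. CLDN6, a fetal tight junction claudin, fell from 90.8 and 75.2 to 2.66 and 2.42 CPM (-4.56), and CGN, cingulin of tight junctions (-2.81), LSR, a tricellular junction protein (-2.51), and ESRP2, an epithelial splicing regulator (-2.24), were lower too. CLDN2, another claudin, rose by 4.49, with 22.6 and 64.8 CPM in CR cells, JUP, plakoglobin, by 2.35, and PROM1 by 2.34. CDH1, which encodes E-cadherin, was at 33.6 and 28 CPM in parental and 57.6 and 95.4 CPM in CR cells, and the difference was not called (1.25 ± 0.49, adjusted p = 0.0603), although 4 of 19 alternatives called it higher. Against the DMSO libraries, which held 69.2 and 282 CPM, the change of CDH1 was -0.91.

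Integrins, which bind matrix at the cell surface, were higher for 13 of 21 tested subunits and lower for 2 (25 listed, median 1.12). ITGA3, a laminin receptor subunit, rose from 1.21 and 0.616 to 101 and 82.3 CPM (5.61). ITGA4, usually an integrin of leukocytes, was at 1 and 0 reads in parental cells and 2872 and 2687 reads in CR cells (CR over parental 5649, 95% counting interval 1013 to 223158). ITGB4, the partner chain of laminin-binding integrins, rose by 3.95. ITGAL, the leukocyte integrin chain, was the largest fall at -2.93, and ITGAE followed with -0.60, a call kept in 11 of 19 alternatives.

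Among 38 tested collagens, laminins and other matrix genes, 21 were higher and 6 lower (46 listed, median 0.85). COL4A1, the partner chain of COL4A2, rose from 4.12 and 3.4 to 190 and 181 CPM (5.30), and LAMA3, a laminin chain of epithelial basement membranes, from 1.09 and 0.763 to 82.8 and 117 CPM (5.69). NID1, the basement membrane linker nidogen, fell from 436 and 466 to 74.9 and 87.6 CPM (-2.46), and COL9A2 and NID2 fell as well (-2.01 and -1.69). COL14A1, the collagen with a change of -6.31, is not on this list and not in its counts.

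Of 32 tested members of the plasminogen system, metalloproteases and their inhibitors, 16 were higher and 4 lower (39 listed, median 0.95). ADAM19, a membrane protease, rose by 5.49, ADAMTS15 by 4.95, and MMP7, matrilysin, from 3 reads over both parental libraries to 20.6 and 20.5 CPM (CR over parental 982, 95% counting interval 336 to 4764). TIMP1 and TIMP2, inhibitors of metalloproteases, rose by 4.25 and 4.17, and TIMP2 reached 370 and 365 CPM. CTSV, a cathepsin, changed by -2.43, ADAMTS1 by -1.35 and MMP14 by -1.17.

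Genes of caveolae, annexins and S100 proteins, which sit at or under the plasma membrane, were higher for 16 of 30 tested and lower for 1 (31 listed, median 1.01). Beside AHNAK2, EHD2, a caveolar ATPase, rose by 4.89 and ANXA1, annexin A1, from 53.3 and 63.4 to 779 and 638 CPM (3.58 ± 0.22). ANXA5 was the one lower (-0.65). Targets of YAP and TEAD report cell spreading and tension, and their list here also holds the YAP, TEAD and cofactor genes themselves. Of 32 tested, 11 were higher and 4 lower (33 listed, median 0.43). That is 34.4% and 12.5%, against 20.9% and 13.6% of all genes. AXL is itself on this list. RBMS3 rose by 2.47 and MYOF by 2.18, while CCN2, the most used reporter of the pathway, was lower at -0.92 and CCN1 was not called at -0.21 (adjusted p = 0.64). IGFBP3 also fell (-1.64).

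Of the ligands, receptors and targets of TGF-beta, a cytokine of matrix production, 10 of 36 tested were higher and 3 lower (39 listed, median 0.34). Their shares were 27.8% and 8.33%, against 20.9% and 13.6% of all genes. LTBP2 and LTBP1, which tether the latent ligand, rose, LTBP2 from 0.175 and 0.147 to 11.8 and 5.75 CPM and LTBP1 by 2.40, BMP6 by 2.30 and INHBA, an activin chain, by 2.25. TGFB1 rose from 21.6 and 15.1 to 36.4 and 42.6 CPM (1.09). FST, the activin antagonist, was lower (-1.94), as were BMP4 and BMP2. With the DMSO libraries as the reference 12 were higher and 7 lower, and the median of the list was -0.08.

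Receptor tyrosine kinases and their ligands changed in both directions, with 11 of 43 tested higher and 10 lower (54 listed, median 0.08). Their shares were 25.6% and 23.3%, against 20.9% and 13.6% of all genes. After AXL, ROR1, a receptor of Wnt ligands, rose from 0.378 and 0.375 to 46.2 and 55.5 CPM (5.23), and DDR1, a collagen receptor, from 5.81 and 4.43 to 54.3 and 76.5 CPM (3.43). Of the FGF receptors, 3 fell: FGFR3 from 80.2 and 69.7 to 4.37 and 8.53 CPM (-3.40), FGFR2 from 8.13 and 6.88 to 0.0773 and 0 CPM (-3.03) and FGFR4, the receptor of the liver, from 114 and 97.5 to 19.5 and 33.9 CPM (-1.99). FGFR1 was not called (1.05, adjusted p = 0.0843). FGF19, the bile acid hormone that binds FGFR4, was lower too (-2.89). EGFR, at 292 and 293 CPM against 309 and 400 CPM (0.26, adjusted p = 0.309), and MET, at 279 and 253 CPM against 374 and 328 CPM (0.40, adjusted p = 0.0889), were not called.

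Among kinases that Sorafenib inhibits, BRAF, at 33.7 and 35.1 CPM in parental and 23.7 and 22.7 CPM in CR cells, passed the adjusted p of 0.05 (0.032) but not the size of 0.58 (-0.55). PDGFRB rose from 0.189 and 0.522 to 2.02 and 2.28 CPM (1.23), and FLT1, a VEGF receptor, fell from 319 reads over both parental libraries to 3 reads over both CR libraries. KDR, FLT3, KIT and RET did not pass the filter on low values. KDR held at most 3 reads in any of the 4 libraries, FLT3 at most 1 and KIT at most 2, and RET was at 0 in all 4, which allows up to 3 reads in each library.

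Genes that ERK signaling induces, many of which limit that pathway in turn, gave 9 of 38 tested higher and 6 lower (42 listed, median -0.03). These shares of 23.7% and 15.8% lay near the 20.9% and 13.6% of all genes, and with the DMSO libraries as the reference 11 were higher and 11 lower. ETV4, an ETS factor, fell from 40.1 and 37.1 to 8.15 and 6.47 CPM (-2.26 ± 0.23, adjusted p = 1.3e-05). The ERK phosphatases DUSP6, from 20.7 and 23.4 to 7.53 and 5.69 CPM (-1.61), and DUSP4 (-1.77) also fell, as did SPRY4 (-0.85). KSR1, a scaffold of the RAF cascade, rose by 2.38, SPRED3 by 1.64 and SPRY2, a sprouty inhibitor, from 19.8 and 13.4 to 87.1 and 89 CPM (2.36). Of the other sprouty genes SPRY3 was higher (1.08) and SPRY1 lower (-1.39).

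Replication and mitosis genes were lower, with 26 of 45 tested called lower and none higher, and a median of -0.94. ORC1, of the origin recognition complex, fell from 62.9 and 62.8 to 15 and 17.3 CPM (-1.90), and CCNB1, the mitotic cyclin B1, from 466 and 449 to 129 and 130 CPM (-1.81 ± 0.21, adjusted p = 3.4e-05). MKI67, the proliferation marker Ki-67, was at 387 and 529 CPM in parental and 205 and 309 CPM in CR cells and was not called (-0.84, adjusted p = 0.148). The number called lower lay between 16 and 22 when single libraries were left out and reached 31 among the other alternatives.

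Of 30 cell cycle inhibitors and p53 targets, 5 were higher and 3 lower (median 0.27). These shares of 16.7% and 10% lay below the 20.9% and 13.6% of all genes. CDKN1A, which encodes the CDK inhibitor p21, rose from 2.44 and 1.03 to 40.4 and 54.9 CPM (4.18 ± 0.68, adjusted p = 0.00044). The second DMSO library held 27.1 CPM of CDKN1A and the first 2.63 CPM. CDKN2B, the inhibitor p15, rose from 15.5 and 22.2 to 82.2 and 79.2 CPM (2.06), and FAS, the death receptor, by 1.82. The neighbouring CDKN2A was not called, at 9.82 and 8.12 against 11.2 and 9.59 CPM (0.20, adjusted p = 0.453). CDKN3, a phosphatase of dividing cells, was lower (-1.26).

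**Figure D4:**
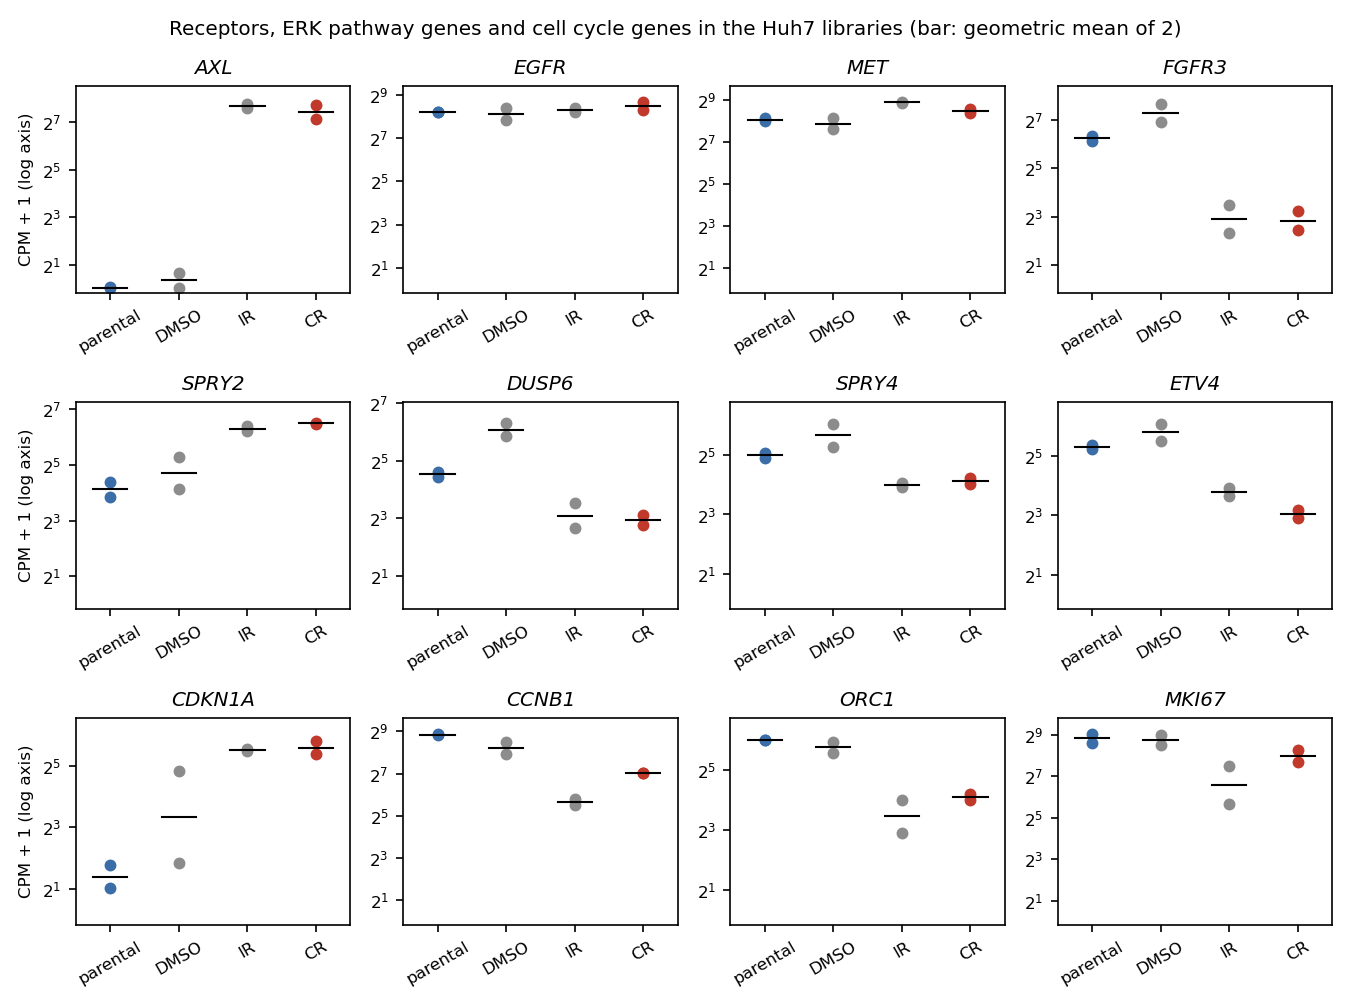
Levels of 12 receptors, ERK pathway genes and cell cycle genes in the 8 Huh7 libraries, as CPM + 1 on a log axis, with 1 point per library and a bar at the geometric mean of the group. AXL separates both resistant lines from the other libraries, EGFR and MET stay within a narrow range, and CCNB1 and ORC1 are lower in CR than in parental cells, with CCNB1 lower still in IR cells.

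In the BCL2 family and other apoptosis genes, 10 of 29 tested were higher and 4 lower (32 listed, median 0.31). The shares were 34.5% and 13.8%, against 20.9% and 13.6% of all genes. PMAIP1, which encodes the pro-apoptotic NOXA, rose from 8.82 and 7.63 to 62.1 and 40.9 CPM (2.48), and BIRC3, an inhibitor of apoptosis, from 34 and 16.5 to 113 and 162 CPM (2.46), and BOK by 2.18. The survival genes MCL1 and BCL2L1 were both lower by a change of -0.80, and CASP9, an initiator caspase, was lower too (-0.89). Both pro-apoptotic and anti-apoptotic members were therefore among the higher genes.

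HIF1A, the oxygen-regulated subunit at the centre of the study, was not called: it was at 814 and 1138 CPM in parental and 588 and 791 CPM in CR cells (-0.50 ± 0.22, adjusted p = 0.0899), although 2 of 19 alternatives called it lower. The RNA level does not measure the protein, which oxygen controls through degradation. USP29, the deubiquitinase of the study, held 1 read in each parental library and 1 and 2 reads in the CR libraries, too few to test. Of 34 hypoxia response genes tested, 9 were higher and 2 lower (35 listed, median 0.57). Those shares were 26.5% and 5.88%, against 20.9% and 13.6% of all genes. When the 4 libraries were fitted alone 17 were higher, beside 3278 of all genes in that fit. STC2, stanniocalcin, rose from 4.16 and 5.87 to 228 and 114 CPM (4.77), DDIT4, an inhibitor of mTOR, by 4.12, LOX, which crosslinks collagen, by 3.67, and ADM, adrenomedullin, by 1.94. EGLN1, the prolyl hydroxylase that marks HIF1A for degradation, fell from 432 and 367 to 156 and 171 CPM (-1.28), and PLOD2 changed by -1.03, a call kept in 12 of 19 alternatives. VEGFA, at 82.2 and 73.1 against 142 and 124 CPM, was not called (0.77, adjusted p = 0.0835). With the DMSO libraries as the reference 6 members were higher and 5 lower, with a median of -0.12.

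In glycolysis and lactate handling, 10 of 36 tested genes were higher and 3 lower (43 listed, median 0.18). The shares were 27.8% and 8.33%, against 20.9% and 13.6% of all genes. SLC2A1, the glucose transporter GLUT1 (chr1:43391024-43424564, minus strand), rose from 21.4 and 13.4 to 96.4 and 78.8 CPM (2.30 ± 0.31, adjusted p = 0.00012). The hexokinase genes HK1, from 2.82 and 1.15 to 76.1 and 78.5 CPM (4.77), and HKDC1, from 4.8 and 2.08 to 95.3 and 96.2 CPM (4.52), rose as well, whereas HK2, at 131 and 130 against 147 and 154 CPM, was not called (0.20, adjusted p = 0.495).

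Later steps of the pathway moved in both directions. PFKM, a phosphofructokinase, rose by 1.73 but lay at 27.7 and 36.1 CPM in the DMSO libraries against 31.2 and 33.8 CPM in Huh7-CR. PKM, pyruvate kinase, fell from 2051 and 1822 to 881 and 1064 CPM (adjusted p = 0.004), TPI1, triose phosphate isomerase, was lower (-0.81), and LDHA was not called at -0.55. PDK2, a kinase that restrains pyruvate dehydrogenase, rose by 2.67 and PDK3 changed by -1.71. SLC16A3, the lactate exporter MCT4, rose from 16.6 and 12.6 to 42.4 and 53.2 CPM (1.65, adjusted p = 0.0297), a call kept in 11 of 19 alternatives, and its DMSO libraries were at 17.4 and 86.6 CPM. SLC16A8 was at 0 reads in all 4 libraries, where up to 3 reads each are allowed. With the DMSO libraries as the reference 6 genes of the list were higher and 8 lower, with a median of -0.14.

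Of gluconeogenesis and glycogen genes, 5 of 25 tested were higher and 6 lower (30 listed, median 0.14). The shares were 20% and 24%, against 20.9% and 13.6% of all genes. PPP1R3C, a glycogen targeting subunit, rose by 2.43, PCK2, the mitochondrial PEP carboxykinase, by 2.23 and PPARGC1A by 1.84, while PC, pyruvate carboxylase, was at -1.71. Cholesterol and fatty acid synthesis changed little against the parental cells, with 2 of 40 higher and 5 lower (median -0.20). Called members made up 5% and 12.5%, both below the shares of all genes. GPAM, which starts glycerolipid synthesis, changed by -3.06, PNPLA3 by -2.20 and HMGCS1, of the cholesterol pathway, by -1.49, although the parental libraries of HMGCS1 differed between themselves at 614 and 1863 CPM. ELOVL5 and ACSS2 rose by 1.86 and 1.30, but the call of ACSS2 was kept in 8 of 19 alternatives and its change was 0.16 against the DMSO libraries. Against the DMSO libraries 25 of these 40 genes were lower and 1 higher.

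Fatty acid oxidation and ketogenesis showed 5 of 41 tested higher and 8 lower (43 listed, median -0.23), but 5 higher and 22 lower with the DMSO libraries as the reference (median -0.74). Against the parental libraries 12.2% were higher and 19.5% lower, beside 20.9% and 13.6% of all genes. FABP1, the liver fatty acid binding protein, fell from 26 and 33.3 to 0.541 and 1.1 CPM (-4.08), and ACOX2 changed by -1.82 and DECR1 by -1.42. ACSL5, an acyl-CoA synthetase, rose from 0.582 and 0.0938 to 27.9 and 28.7 CPM (4.48), and OXCT1, the ketone-using enzyme that hepatocytes normally lack, by 2.22. Subunits of the respiratory chain were lower for 10 of 46 and higher for none, all by less than 1 (median -0.26), with CYC1 at -0.98, ATP5MC3 at -0.89 and ATP5F1A at -0.84.

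Of 38 tested genes of the urea cycle and amino acid catabolism 10 were higher and 12 lower (44 listed, median -0.14). The shares were 26.3% and 31.6%, against 20.9% and 13.6% of all genes. GLDC, of glycine cleavage, fell from 131 and 169 to 10.8 and 19.9 CPM (-3.25), and HGD, of tyrosine breakdown, was lower too (-2.95). CTH, of cysteine synthesis, rose by 2.27, ASNS, asparagine synthetase, by 2.26, PHGDH, the first enzyme of serine synthesis, by 2.22 and PSAT1, the second, by 2.06.

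Those synthesis genes are also targets of ATF4, the factor of the integrated stress response. Of 36 tested genes of the integrated stress and unfolded protein responses, 16 were higher and 6 lower (37 listed, median 0.57). STC2, DDIT4 and CHAC1, a glutathione-degrading enzyme (2.42 and 2.8 to 33.6 and 19.9 CPM, 2.90), led the higher members, followed by ASNS, from 106 and 103 to 703 and 362 CPM. The 6 lower members act in or on the endoplasmic reticulum: PDIA4, from 417 and 425 to 164 and 197 CPM (-1.22), SDF2L1 (-1.21), CRELD2 (-1.15), HSPA5, the chaperone BiP (-0.93), MANF (-0.75) and HYOU1 (-0.63). The other 14 were not called, among them ATF3, an ATF4-induced factor, at 18 and 16.1 against 66.6 and 34.3 CPM (1.44, adjusted p = 0.0509).

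Promoter stretches of ASNS and CHAC1 are shown because ATF4 acts on such genes through a composite element with C/EBP factors. The letters TGATGNAA were searched on both strands in the 250 bases before each gene's start, and the matches are in capitals. Of 15 higher genes of this list with a promoter 2 held a match, of 14 not called 2 (ATF3 and HERPUD1) and of 6 lower 0, beside 870 of all 27305 promoters (3.19%). The ASNS stretch lies at chr7:97872459-97872486 on the minus strand and the CHAC1 stretch at chr15:40953252-40953279 on the plus strand (GRCh38.p14), and the match in CHAC1 reads on the opposite strand.
ASNS: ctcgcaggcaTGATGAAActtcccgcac
CHAC1: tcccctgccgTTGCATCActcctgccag

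NRF2 targets and glutathione genes, which answer oxidative stress, were lower for 12 of 35 and higher for 4 (median -0.43). That made 34.3% lower and 11.4% higher, against 13.6% and 20.9% of all genes. GPX3, the plasma glutathione peroxidase, fell from 93.2 and 86.5 to 6.43 and 9.8 CPM (-3.34), NQO1, a quinone reductase, from 239 and 320 to 48.9 and 58.9 CPM (-2.34), and GCLM, a subunit of glutathione synthesis, was lower (-2.19). SLC7A11, the cystine importer, rose from 49.3 and 74 to 263 and 144 CPM (1.67), and ABCC3 and TRIM16L rose by 2.06 and 2.39. SLC7A11 is also induced by ATF4.

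Of 47 tested drug metabolism enzymes, 12 were higher and 12 lower (63 listed, median 0.02). Either share was 25.5%, against 20.9% higher and 13.6% lower of all genes. With the DMSO libraries as the reference 7 were higher and 12 lower. CYP1A1, of the aryl hydrocarbon response, fell from 35.5 and 18.1 to 0.17 and 0.759 CPM (-4.20), SULT2A1, a steroid sulfotransferase, from 26.2 and 32.7 to 0.185 and 0.55 CPM (-4.48) and UGT2B4 was lower (-2.42). CYP2S1 and CYP1B1, cytochromes found mainly outside the liver, rose by 3.84 and 3.22, from under 0.3 CPM, and the estrogen sulfotransferase SULT1E1 by 2.37. UGT1A6, UGT1A9 and UGT1A1 rose by 2.06, 1.95 and 1.86, but these genes share exons, so that the reads cannot be assigned to one of them.

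For transporters and bile acid genes, 8 of 25 tested were lower and 4 higher (36 listed, median -0.30). That was 32% lower and 16% higher, against 13.6% and 20.9% of all genes. ABCB1, the multidrug efflux pump P-glycoprotein, fell from 135 and 117 to 17.9 and 35.8 CPM (-2.27 ± 0.40, adjusted p = 0.00076). ABCG2, another efflux pump, was at 5.05 and 5.26 against 4.56 and 9.38 CPM and was not called (0.30 ± 0.50, adjusted p = 0.669), and its sign turned in 3 alternatives. ABCC3, a conjugate exporter, rose from 24.9 and 18.2 to 89.7 and 94.4 CPM (2.06), and SLC22A3, an organic cation transporter, by 2.33. KLB, the co-receptor that FGF19 needs, was lower at -2.55. The metallothioneins and zinc transporters gave 1 higher and 3 lower of 15 tested (19 listed, median 0.00), with SLC30A10, a manganese exporter, at -4.87 and MT1E at 1.59. Their shares of 6.67% and 20% compare with 20.9% and 13.6% of all genes. MT1E kept its call in 9 of 19 alternatives, between 0.49 and 3.37, and with the DMSO libraries as the reference 6 genes of the list were higher and 2 lower.

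Interferon-stimulated genes were higher for 16 of 37 tested and lower for 1 (42 listed, median 0.51). That was 43.2% higher and 2.7% lower, against 20.9% and 13.6% of all genes. SAMD9, a restriction factor, rose from 0.349 and 0.228 to 18.3 and 19.4 CPM (3.95), and its neighbour SAMD9L from 0 reads in both parental libraries to 668 and 666 reads, at least 452-fold higher against a floor of 3 reads over the group. OAS2, which senses double-stranded RNA, went from 0.378 and 0.362 to 10.9 and 11.2 CPM (3.14) and IFIT2 by 3.02. CMPK2 was the member that fell (-1.03). In HLA class I and immune ligand genes 10 of 26 tested were higher (38.5%) and 1 lower (3.85%; 29 listed, median 0.57). CD274, which encodes PD-L1, rose from 0.189 and 0.241 to 14.6 and 7.25 CPM (3.22 ± 0.27, adjusted p = 2.8e-06), CD47, the signal against phagocytosis, from 13.5 and 9.64 to 112 and 109 CPM (3.16), and HLA-E by 2.66. The HLA genes resemble each other, so that their reads are less certain. TNFSF9 was lower (-1.31).

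Chemokines and cytokines gave 7 higher and 7 lower of 27 tested (39 listed, median -0.19). Either share was 25.9%, against 20.9% higher and 13.6% lower of all genes. LIF, a cytokine of the interleukin-6 family, rose from 3 and 2.48 to 53.1 and 48.2 CPM (3.79), TSLP by 1.79 and CSF1 by 1.38. SPP1, osteopontin, fell from 258 and 343 to 13.3 and 30.3 CPM (-3.82), and the chemokines CCL20 (-3.65), CXCL16 (-3.43) and CXCL1 (-2.58) were lower.

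Huh7-CR cells were also compared directly with Huh7-IR cells. Each regimen is represented by a single Huh7 line, so that the regimen and the separate derivation of the lines cannot be told apart. Of 15019 genes tested, 815 were higher (5.43%) and 1236 lower (8.23%) in Huh7-CR. The IR replicates differed more from each other (SD 0.57) than the CR replicates, and the test borrows its spread from all groups: in a fit of the 8 Huh7 libraries 194 genes were called, and in a fit of these 4 libraries none by limma, with 2428 at an unadjusted p under 0.05, beside 1732 by edgeR and 2468 by DESeq2 over all libraries. ALB was at 60.6 and 261 CPM in IR and 1147 and 2305 CPM in CR cells (CR minus IR 3.68 ± 0.61, adjusted p = 0.00323), APOB at 2.65 and 11.5 against 64.8 and 207 CPM (4.12) and the NADPH oxidase DUOX2 at 2.2 and 7.62 against 51.5 and 149 CPM (4.08). NCAM1, a neural adhesion molecule, was at 0.182 and 0.0858 CPM in IR and 15.9 and 7.47 CPM in CR cells. ZXDB, a zinc finger gene, was at 0.514 and 0.257 CPM in IR and 20 and 17.3 CPM in CR cells (3.83), with 11.7 and 12.8 CPM in the parental libraries.

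Lower in CR than in IR cells were CRYAB, a small heat shock protein, at 1.72 and 3.09 against 136 and 13.9 CPM (CR minus IR -3.76), the formin FHOD3 (-3.64), UBE2QL1 (-3.55) and the interferon-induced SLFN5 (-3.28). The IR libraries of CRYAB thus differed by more between themselves than its CR libraries did. Of 45 replication and mitosis genes 21 were higher and none lower in CR than in IR cells, with a median difference of 0.90, and of 27 plasma protein genes 7 were higher and 1 lower. CCNB1 was at 44.4 and 53.9 CPM in IR, 129 and 130 CPM in CR and 466 and 449 CPM in parental cells. AFP, at 3.12 and 2.79 CPM in IR and 11.3 and 20.1 CPM in CR cells, was low in both. Both lines are compared with the same parental libraries, so that their changes against these are not independent.

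The change under constant Sorafenib was then set against that in Hep3B cells, a second HCC line with its own parental and CR libraries. The change differed between the lines for 3292 genes, of which 1682 were higher (11.2%) and 1610 lower (10.7%) in the Huh7 change. COL4A1 changed by 5.30 in Huh7 and -1.35 in Hep3B (difference 6.65 ± 0.51, adjusted p = 5e-06), LAMA3 by 5.69 and -0.83 (difference 6.52), UNC13D, a factor of granule release, by 5.29 and -1.93 (difference 7.21) and the glutamate receptor GRIK2 by 3.11 and -3.19 (difference 6.30). COL14A1 went the other way, with -6.31 in Huh7 and 2.68 in Hep3B (difference -8.99), as did the myosin MYO1D with -4.69 and 1.53 (difference -6.22). MTTP fell in both by different amounts, -7.75 and -2.28 (difference -5.47), and XAGE2 was hardly expressed in Hep3B, at 0 and 0.0422 CPM in its parental libraries (difference -5.92). ALB changed by -1.17 in Huh7 and by -4.18 in Hep3B. Of 36 integrated stress and unfolded protein response genes, 14 had a lower change in Huh7 than in Hep3B and 1 a higher one.

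As a background for the vehicle, Huh7 DMSO libraries were compared with the parental ones, and 520 genes were higher (3.46%) and 206 lower (1.37%). The DMSO replicates differed from each other with an SD of 0.57, and the count was 29 in a fit of the Huh7 libraries. In a fit of the 4 libraries alone limma called none, with 1214 genes at an unadjusted p under 0.05, while edgeR called 812 and DESeq2 1833 over all libraries. AXL, AFP, MTTP and CEBPA lay in the DMSO libraries at 0.0414 and 0.603, 5476 and 7222, 399 and 412, and 178 and 276 CPM, each on the parental side of its Huh7-CR level.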

How the data were processed

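RNA of 16 libraries, 8 groups of 2, was sequenced, and the authors deposited 1 table of CPM values per gene, made per the submitters' processing notes with STAR on hg19 and, by the study's methods, from RefSeq exon counts with qCount of QuasR. The authors' own test used edgeR, and their methods speak of biological triplicates, whereas the labels give 2 libraries per group. All values were whole reads (100% within 0.05 reads) once divided by the value of 1 read, so that depth was recovered (46613302 to 76860251 reads). All columns were assigned to a sample. Of 26258 Entrez IDs, 26111 matched a symbol.

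Genes that reached 1 CPM in 2 or more libraries were tested with limma 3.58.1 (R 4.3.3) on log2(CPM + 1), with a mean-variance trend, 1 term per group and all 16 libraries in the fit, and p-values were adjusted by Benjamini-Hochberg over 15019 genes. Calls needed an adjusted p under 0.05 and a change of at least 0.58. As alternatives, the recovered reads were tested with edgeR 4.0.16 and DESeq2 1.42.0, and scaling, pseudocount, filter, reference, replicate and GC settings were varied. In simulated data for Huh7-CR against parental (15019 genes), 95 of 100 genes changed by 2 on the log2 scale, 46 of 100 changed by 1 and 8 of 14819 unchanged genes were called. The changed genes were drawn only from those with a mean level well above 1 CPM, and libraries varied independently, without GC trends. These rates therefore cover neither changed genes at low levels nor the GC trends of the real replicates. Intervals are 95% and floors are 3 reads, and both cover counting error only.

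The text names the 15 largest called rises and falls, up to 3 called members of each list in each direction with further members as examples, the 4 largest differences per direction in the other comparisons, and a fixed set of genes such as HIF1A. A few genes that this rule names are not reported here. Members and lists were chosen with earlier results of these data known. Gene positions are GENCODE on GRCh37, and promoter sequences are RefSeq on GRCh38.p14.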

Additional observations from a re-analysis of the deposited data

Results flagged for a closer look

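The change against parental cells differed between the CR and IR lines of Huh7 for 2051 genes, by the limma test of Huh7-CR against Huh7-IR. The largest differences, CR minus IR on the log2 scale, were 4.12 for APOB, 4.08 for DUOX2, 3.83 for ZXDB and 3.68 for ALB in the one direction, and -3.76 for CRYAB, -3.64 for FHOD3, -3.55 for UBE2QL1 and -3.28 for SLFN5 in the other. UBE2QL1 lay at 20.7 and 6.41 CPM in IR and at 0.108 and 0.0524 CPM in CR cells, and SLFN5 at 94.2 and 76.1 against 13.6 and 4.35 CPM.

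The change under constant Sorafenib differed between Huh7 and Hep3B for 3292 genes, by the test of the difference itself. The largest differences were 7.21 for UNC13D, 6.65 for COL4A1, 6.52 for LAMA3 and 6.30 for GRIK2, and -8.99 for COL14A1, -6.22 for MYO1D, -5.92 for XAGE2 and -5.47 for MTTP. COL14A1 was at 3.62 and 5.74 CPM in Hep3B parental and 28.8 and 42 CPM in Hep3B CR cells. The causes of these differences were not tested.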

How the results depend on the processing

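Over 19 alternatives, 179 of 212 named genes called in Huh7-CR against parental kept their call in all, 33 lost it in at least 1, and 0 changed direction; the largest losses were 19 genes with the DMSO libraries as reference and 19 without CR replicate 1. Genes higher numbered 547 and lower 289 at a change of at least 2, and 2266 to 2853 and 1478 to 1718 when single libraries were left out. Of 10 named genes not called, 6 were called in at least 1 alternative, BRAF in 6 of 19, CDH1 in 4, HIF1A and ALB in 2 each, and MET and MKI67 in 1 each. The sign turned for HIF1A (0.02, DMSO reference), CDH1 (-0.91, DMSO reference), CDKN2A (-0.06, quantile normalization) and ABCG2 (-0.64 with the DMSO reference, -0.17 with parental and DMSO, -0.15 to 0.75 leaving out single libraries). Huh7-CR against Huh7-IR gave 194 genes with Huh7 libraries alone, 0 by limma in the compared groups alone, 3148 by unadjusted p, 105 at a change of at least 2, and 479 (without CR replicate 2) to 2878 (without IR replicate 2), with 879 without CR replicate 1. The difference between the lines gave 685 genes at a change of at least 2, and 2078 (without Hep3B CR replicate 2) to 2555, with 2145 without Hep3B parental replicate 1. DMSO against parental gave 1833 genes by DESeq2, 382 with no filter, 29 with Huh7 alone, 0 by limma in the compared groups alone, 2171 by unadjusted p, 78 at a change of at least 2, and 148 (without DMSO replicate 2) to 3564 (without DMSO replicate 1), with 149 and 204 without parental replicates 1 and 2. The cause was not tested.

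With the replicate block, 3117 genes were higher and 2055 lower in Huh7-CR, and 0 of the 212 named genes lost their call. Deviations of same-numbered parental and CR libraries correlated at -0.0236 across genes. The replicate differences behind this value followed GC content in opposite directions (Spearman -0.53 in parental, 0.27 in CR). With 2 libraries per group, it cannot show whether the numbers pair the samples. Fits without 1 library leave a group with 1 sample, which is assumed to vary like the other groups.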

Other observations

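Of 28 tested Wnt targets and GPC3, 6 were higher and 6 lower in Huh7-CR (35 listed, median 0.04). Either share was 21.4%, against 20.9% higher and 13.6% lower of all genes. GPC3, the oncofetal surface proteoglycan of HCC, fell from 460 and 513 to 39.2 and 48.4 CPM (-3.45), while its IR libraries held 3.73 and 3.05 CPM. DKK3, a member of the dickkopf family, rose from 22.2 and 17.1 to 266 and 347 CPM, and DKK1, a Wnt antagonist, fell from 170 and 106 to 28.3 and 24.6 CPM. Keratins and progenitor markers gave 8 higher (30.8%) and 1 lower (3.85%) of 26 tested (28 listed, median 0.13). KRT7, a keratin of bile ducts, rose by 3.64 from under 0.2 CPM, and KRT23 was the lower member (-3.34). CD44, a hyaluronan receptor, reached 197 and 90.9 CPM from 14.6 and 1.41 CPM.

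Axon guidance and adhesion receptors showed 16 higher and 7 lower of 38 tested (42 listed, median 0.36). This was 42.1% and 18.4%, against 20.9% and 13.6% of all genes. SEMA3C, a secreted semaphorin, rose from 34 and 19.7 to 285 and 210 CPM and its receptor family member PLXNA2 from 7.83 and 6.87 to 54.2 and 57.7 CPM. Of 36 lysosome genes and RAG GTPases 15 were higher (41.7%) and 3 lower (8.33%), with a median of 0.53. RRAGD, a GTPase of mTORC1 signaling at the lysosome, rose from 1.08 and 1.89 to 34.1 and 29 CPM, and CTSH, cathepsin H, fell from 55.8 and 36.8 to 5.43 and 5.85 CPM. Cytosolic ribosomal proteins gave 4 higher (7.55%) and 2 lower (3.77%) of 53 tested (median 0.07), with RPL24 at -0.98.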
